A study of Mus musculus with 6 samples.

Results

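The chemokines and chemokine receptors were taken from the gene table of the series by their symbols, 61 genes of 35434. They comprise 38 ligands (symbols starting with Ccl, Cxcl, Cx3cl or Xcl) and 23 receptors, among them the atypical receptors Ackr1 to Ackr4 and Ccrl2. The series sequenced RNA of the large intestine of mice with inflammatory bowel disease (IBD mice) that had received regulatory T cells (Tregs), either control cells (Ctrl-Tregs) or cells treated with lenvatinib (Lenv-Tregs), a drug that blocks several receptor tyrosine kinases. Its 6 libraries are titled int 2 and int 3, with replicates 1 to 3 in each, and nothing in the titles ties a number to a transfer. Every difference below is int 3 minus int 2 and carries no treatment. The strain, the age, the way the disease was induced, the number of animals behind a library and an untreated control are not given in the sources used here. All libraries share the disease and a Treg transfer, as far as the labels say.

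Chemokines are small secreted proteins that guide leukocytes along concentration gradients, and they act through G protein-coupled receptors on the migrating cells. Inflammatory chemokines are induced by interferons and by bacterial or cytokine signals and bring in neutrophils, monocytes and activated T cells. Homeostatic chemokines are made constantly, by lymphoid stroma, lymphatic vessels or epithelium, and place lymphocytes in follicles and along the mucosa. Atypical receptors bind chemokines without the usual G protein signal and transport or remove them.

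The 6 libraries held between 34.0 and 35.1 M fragments (M, 1e6), read from the steps in the deposited values. Expression is given as FPKM, the fragments of a gene scaled to its length and to the size of the library, so levels of different genes can be set side by side. Genes of large intestine epithelium marked the tissue in all libraries, with 12 of 12 tested, Lgals4 at 2574 to 4072 FPKM and Epcam at 595 to 700 FPKM. The int 3 libraries lay farther apart than the int 2 libraries. Over the tested chemokines and receptors the log2 difference between 2 int 2 libraries had an SD of 0.173 to 0.186, and between int 3-2 and int 3-3 it was 0.839 (0.110 to 0.115 and 0.513 over all tested genes). Hox genes and other genes of position along the large intestine summed to 326 to 328 FPKM in int 2 and to 193, 52.9 and 324 FPKM in int 3. The labels do not state whether each library is an animal of its own, so p-values reflect only how far these libraries differ, which may be technical. Where 3 values follow a group's name or precede it, they are in the order of replicates 1 to 3.

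Most tested ligands of inflammation were higher in int 3, and 4 receptors of lymphocytes were lower, with the 2 ligands of Ccr7. The steepest rises were in Ccl8, Cxcl10, Cxcl9, Ccl2, Cxcl5, Ccl7, Cxcl1, Cxcl2 and Ccl12. The falls that passed the test were in the receptors Cxcr5, Cxcr4, Ccr7 and Ccr6 and in the ligands Ccl21a, Ccl6 and Ccl19. Ccl20 had a steeper difference than several of these (log2 change -1.43) but did not pass. A gene was tested where it reached 1 FPKM in at least 3 of the 6 libraries, and it rose or fell where the difference of log2(FPKM + 1) had an adjusted p under 0.05 in limma's test over all 12525 tested genes. Of the 61 chemokines and receptors 38 were tested, 13 rose, 7 fell and 18 did not pass. Those counts are 34.2% and 18.4% of the tested members, and the same calls took 8.64% and 6.7% of all tested genes. Of the 13 that rose, 6 (Cxcl1, Cxcl2, Cxcl5, Cxcl9, Cxcl10 and Ccr2) reached 1 FPKM only in int 3, so the filter let them in through the group where they were high, and the count is a description. With no filter 60 members could be fitted, 12 rose and 8 fell, against 3.6% and 3.11% of 24866 genes. In all tested genes 56.3% of calls were higher in int 3, and 67.7% with each library rescaled to TPM, which moved the median of all genes to 0.10. With TPM 14 members rose and 7 fell. Leaving out int 2-1, int 2-2, int 2-3 or int 3-1 left 4 members lower in each case, leaving out int 3-3 gave 11, and the number higher ranged from 8 (without int 2-1) to 15 (without int 3-2). Of the 20 calls 12 stood in every alternative. The median log2 change of the tested members was -0.01, beside 0.03 over all tested genes. Values of int 3 and int 2 did not overlap for 25 of the 38 tested members (65.8%), and for 40.4% of all tested genes. In whole tissue, fewer cells of a type and less RNA per cell cannot be told apart.

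**Figure D1:**
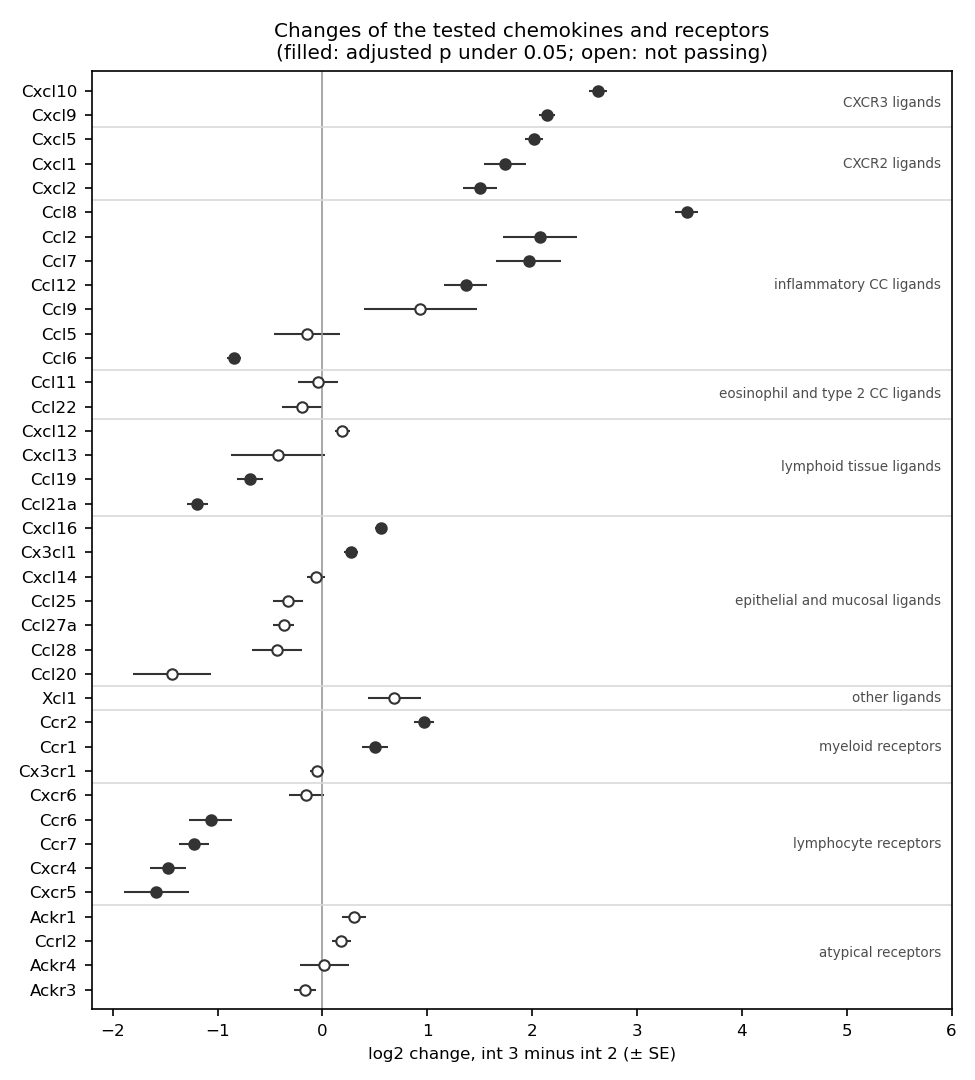
Log2 change of each of the 38 tested chemokines and receptors (x axis, int 3 minus int 2 on the log2(FPKM + 1) scale, bars are the SE of the limma fit), grouped by role. Filled points passed at an adjusted p under 0.05, 13 to the right of 0 and 7 to the left, and Ccl8 lies farthest right at 3.47.

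Cxcl9 and Cxcl10, the interferon-induced ligands of the receptor Cxcr3 on activated T cells and NK cells, both rose. Cxcl10 stood at 0.927, 0.949 and 0.798 FPKM in int 2 and at 10.6, 11.8 and 9.77 FPKM in int 3. The mean rose 12.0-fold, from 0.891 ± 0.0820 to 10.7 ± 1.01 FPKM (means ± SD, n = 3; log2 change 2.63 with SE 0.08, adjusted p = 8.17e-05). Cxcl9 stood at 0.482, 0.390 and 0.474 FPKM in int 2 and at 5.52, 5.72 and 4.95 FPKM in int 3, in the same order of replicates, again 12.0-fold higher (log2 change 2.14, SE 0.08, adjusted p = 9.79e-05). The 3 int 3 libraries were close to each other for both ligands, and all lay far above the int 2 libraries. Their calls stood in each of the 14 alternatives tried. Cxcr3 itself was below the filter and pointed the other way, at 0.544, 0.722 and 0.691 FPKM in int 2 and 0.346, 0.219 and 0.443 FPKM in int 3 (adjusted p = 0.0852 without a filter). Of 14 tested interferon response genes from a list 13 rose (92.9%, beside 8.64% of all tested genes). Of the 14, 1 passed the filter only through int 3. The list was chosen with earlier results of these data known, so the count is a description. Without a filter 10 of 15 fitted genes of the list rose (66.7%, beside 3.6% of all fitted genes). The interferon genes themselves were scarce, with Ifng at 0 to 0.0964 FPKM in int 2 and 0 to 0.291 in int 3, and Ifnb1 listed at 0 in all 6 libraries.

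The ligands of Cxcr2, the main chemokine receptor of neutrophils, rose from near 0. Cxcl5, made largely by epithelium and stroma, stood at 0.0705, 0.0876 and 0.159 FPKM in int 2 and at 3.17, 3.90 and 3.38 FPKM in int 3. Behind these values were 4, 5 and 9 fragments in int 2 and 179, 220 and 196 in int 3, and the means differed 32.9-fold (log2 change 2.02, SE 0.09, adjusted p = 0.000164). The low int 2 counts make that ratio imprecise, but no int 2 library came near the int 3 range. Cxcl1 stood at 0.489, 0.213 and 0.552 FPKM in int 2 and at 2.85, 5.32 and 3.32 FPKM in int 3 (9.17-fold, log2 change 1.74, SE 0.20, adjusted p = 0.00398). Cxcl2 stood at 0.189, 0.268 and 0.0811 FPKM in int 2 and at 2.08, 3.23 and 1.84 FPKM in int 3 (13.3-fold, log2 change 1.503, SE 0.16, adjusted p = 0.00308). For both, int 3-2 held the highest value. Cxcl3 was below the filter, with 0 fragments in each int 2 library and 11, 18 and 1 in int 3-1, int 3-2 and int 3-3. Cxcl15 had 1 fragment in all. The receptor Cxcr2 had 1, 0 and 1 fragments in int 2 and 13, 15 and 1 in int 3, and Cxcr1, its relative, 1 fragment in all 6 libraries.

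Several neutrophil markers were higher in int 3 beside these ligands, and Camp was lower. Of 10 listed markers 3 were tested and 2 rose, S100a8 and S100a9, which passed the filter only through int 3, so this count is a description. Ly6g did not pass (adjusted p = 0.0697), Camp was lower in each int 3 library (0.391 to 0.584 FPKM in int 2, 0.147 to 0.245 in int 3), and Elane was listed at 0 in all. Csf3r, Retnlg and Mmp8, all below the filter, were higher in each int 3 library. Csf3r stood at 0.151 to 0.1895 FPKM in int 2 and 0.406 to 0.717 FPKM in int 3. Retnlg stood at 0 to 0.0480 and 0.141 to 1.16 FPKM, and Mmp8 at 0 and 0.02325 to 0.0959 FPKM. Without a filter 3 of 9 fitted markers rose (33.3%, beside 3.6% of all fitted genes) and 0 fell. S100a9, a calcium-binding protein abundant in neutrophils, stood at 0 to 0.0559 FPKM in int 2 and at 6.88, 12.7 and 2.23 FPKM in int 3. The summed level of the list was 39.7 to 40.3 FPKM in int 2 and 120, 77.2 and 162 FPKM in int 3, most of it Ly6g, at 38.9 to 39.7 FPKM in int 2 and 106, 51.8 and 155 FPKM in int 3. Among the int 3 libraries Cxcr2 and S100a9 were highest in int 3-2 and lowest in int 3-3, and Ly6g and the list sum ran the other way. The part of neutrophil number in the rise of the Cxcr2 ligands was not tested.

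The promoters of Cxcl1, Cxcl2 and Cxcl3, genes of a cluster on chromosome 5, carried an identical run of letters. RefSeq promoter sequences (build GRCm38.p6, not the GRCm39 of the expression table) were matched by symbol for 47 of the 61 genes. Promoters of 300 bases were searched on both strands for the kappa-B consensus bound by NF-kB, for GAAA, any 2 bases and GAAA, the core of the interferon-stimulated response element, and for TTCNNNGAA, the gamma-activated sequence. The 250 bases before the start are shown for 6 ligands, 5' to 3' along the gene, because they are ligands induced by inflammation; Ccl20 is the 1 of them with lower values in int 3, and it missed the threshold (adjusted p = 0.0511). Capitals mark every motif match.
Cxcl1, chr5:90890995-90891244, plus strand: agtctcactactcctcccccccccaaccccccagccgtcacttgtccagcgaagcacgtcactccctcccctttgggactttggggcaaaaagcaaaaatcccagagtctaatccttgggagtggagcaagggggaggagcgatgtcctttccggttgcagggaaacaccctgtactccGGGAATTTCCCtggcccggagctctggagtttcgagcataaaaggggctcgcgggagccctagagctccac
Cxcl2, chr5:90903649-90903898, plus strand: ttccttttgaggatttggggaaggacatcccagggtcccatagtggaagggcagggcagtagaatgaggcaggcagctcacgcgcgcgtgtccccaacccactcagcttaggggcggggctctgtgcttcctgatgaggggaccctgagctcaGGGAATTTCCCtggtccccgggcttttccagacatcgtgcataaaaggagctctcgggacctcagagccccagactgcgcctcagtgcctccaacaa
Cxcl3, chr5:90785851-90786100, plus strand: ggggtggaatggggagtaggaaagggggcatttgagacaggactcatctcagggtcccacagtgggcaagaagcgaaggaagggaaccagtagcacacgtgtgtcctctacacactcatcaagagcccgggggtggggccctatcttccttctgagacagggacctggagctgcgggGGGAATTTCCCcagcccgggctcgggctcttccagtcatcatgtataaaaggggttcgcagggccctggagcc
Cxcl10, chr5:92348890-92349139, minus strand: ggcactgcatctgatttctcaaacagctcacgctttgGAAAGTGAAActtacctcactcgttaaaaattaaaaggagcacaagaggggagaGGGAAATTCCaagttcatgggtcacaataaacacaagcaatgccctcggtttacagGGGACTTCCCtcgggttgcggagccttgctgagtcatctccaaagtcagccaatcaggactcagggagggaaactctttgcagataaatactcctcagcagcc
Cxcl9, chr5:92328080-92328329, minus strand: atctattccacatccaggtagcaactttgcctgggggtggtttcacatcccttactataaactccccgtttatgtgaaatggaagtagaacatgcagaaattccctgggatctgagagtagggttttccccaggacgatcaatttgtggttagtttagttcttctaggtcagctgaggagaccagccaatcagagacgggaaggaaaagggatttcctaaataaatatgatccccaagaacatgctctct
Ccl20, chr1:83116516-83116765, plus strand: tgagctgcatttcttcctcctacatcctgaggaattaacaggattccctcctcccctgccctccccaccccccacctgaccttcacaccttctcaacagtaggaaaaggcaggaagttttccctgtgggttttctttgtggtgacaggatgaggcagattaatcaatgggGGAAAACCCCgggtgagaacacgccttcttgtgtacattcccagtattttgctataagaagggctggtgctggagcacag
In Cxcl1, Cxcl2 and Cxcl3 the capitals are GGGAATTTCCC, where 2 overlapping kappa-B matches form 11 bases. That run was in 14 of 32851 promoters of the table (0.0426%), and among the chemokines and receptors matched in these 3. Cxcl10 holds a match to the interferon-stimulated core that starts at position -213 from the start site and 2 separate kappa-B matches. Cxcl9 rose by a similar amount with no match to the 3 motifs in this window. Ccl20 holds a kappa-B match at -80. The kappa-B consensus was in 11 of the 56 promoters of these 47 genes (19.6%) and in 4.51% of all promoters. The interferon-stimulated core was in 3 of them (5.36%, against 3.44%) and TTCNNNGAA in 3 (5.36%, against 8.3%). Kappa-B was in 3 of 9 promoters of members that rose (33.3%) and in 1 of 6 promoters of those that fell (16.7%, in Ccr6). Ccl8, which rose most, and Ccl12 are not shown and had no match to the 3 motifs. Ccl9 and Ccrl2, which did not pass, held a kappa-B match. These matches describe letters only, and no binding was measured.

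Ccl8 formed the next group with Ccl2, Ccl7 and Ccl12. Of these, Ccl2, Ccl7 and Ccl12 are ligands of the receptor Ccr2, which brings monocytes out of the blood. Ccl8 stood at 2.17, 2.78 and 2.92 FPKM in int 2 and at 37.4, 43.7 and 36.4 FPKM in int 3. It was 14.9-fold higher in int 3 (log2 change 3.47, SE 0.11, adjusted p = 8.17e-05) and went from rank 15 among the 38 ligands in each int 2 library to ranks 4, 2 and 5. No other member changed by as much on this scale. Ccl2 stood at 1.12, 0.720 and 1.05 FPKM in int 2 and at 7.45, 12.6 and 3.86 FPKM in int 3 (8.25-fold, log2 change 2.07, SE 0.35, adjusted p = 0.0136). Ccl7 stood at 0.911, 1.81 and 1.32 FPKM in int 2 and at 7.98, 12.8 and 4.99 FPKM in int 3 (6.39-fold, log2 change 1.97, SE 0.31, adjusted p = 0.0107). Ccl12, a mouse relative of Ccl2, stood at 1.42, 1.35 and 2.35 FPKM in int 2 and at 5.19, 7.84 and 4.95 FPKM in int 3 (3.51-fold, log2 change 1.37, SE 0.20, adjusted p = 0.00866). All 4 had int 3-2 highest, int 3-3 lowest and every int 3 library above every int 2 library. The calls of Ccl2, Ccl7 and Ccl12 were lost when some libraries were left out. Ccl2 had adjusted p = 0.0619 without int 2-1, 0.0724 without int 2-2, 0.0649 without int 2-3 and 0.0681 without int 3-1. Ccl7 had 0.0579, 0.0566 and 0.0559 without int 2-1, int 2-3 and int 3-1, and Ccl12 had 0.0502 and 0.0505 without int 2-1 and int 2-2.

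Ccr2 itself and Ccr1 rose as well. Ccr2 stood at 0.642, 0.768 and 0.762 FPKM in int 2 and at 2.60, 2.00 and 2.57 FPKM in int 3 (3.30-fold, log2 change 0.97, SE 0.10, adjusted p = 0.0023). Here int 3-2, the highest library for the ligands, was the lowest. Ccr1, a receptor of monocytes and neutrophils, stood at 1.60, 1.48 and 1.72 FPKM in int 2 and at 2.87, 3.17 and 2.09 FPKM in int 3 (log2 change 0.50, adjusted p = 0.0426). The call of Ccr1 was lost without a filter (adjusted p = 0.0931), with voom on the fragments (0.0543) and without int 2-1, int 2-2, int 2-3 or int 3-1 (0.147, 0.158, 0.123 and 0.157). Cx3cr1, the receptor of resident intestinal macrophages, did not pass, at 2.04, 1.96 and 2.14 FPKM in int 2 and 1.84, 1.90 and 2.06 FPKM in int 3 (log2 change -0.05, adjusted p = 0.614).

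Several macrophage markers rose beside these genes. Of 11 tested monocyte and macrophage markers, 1 of which passed the filter only through int 3, 6 rose (54.5%, beside 8.64% of all tested genes). Ly6c2, the blood monocyte marker, was the 1 that fell. The 4 that did not pass were Csf1r (log2 change 0.06, adjusted p = 0.5), Cd14, Mrc1 and Cd163. The summed level was 158 to 163 FPKM in int 2 and 228.5, 208.9 and 261 FPKM in int 3. It was lowest in int 3-2, where Ccl8, Ccl2, Ccl7 and Ccl12 were highest. Against that sum Ccr2 made 0.395% to 0.487% in int 2 and 0.959% to 1.14% in int 3, and Cx3cr1 1.24% to 1.34% and 0.789% to 0.907%. Ccr1 made 0.936% to 1.07% in int 2 and 1.25%, 1.52% and 0.799% in int 3. Relative to the macrophage markers Ccr2 was thus higher in int 3, Cx3cr1 lower, and Ccr1 overlapped. No test was made on these ratios.

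Ccl6 was the single tested inflammatory ligand of the CC family that fell. It is known from macrophages and other myeloid cells, and which cells made it here was not tested. Ccl6 was the most abundant ligand in all 6 libraries. Its values were 241, 236 and 237 FPKM in int 2 and 131, 123 and 143 FPKM in int 3. It fell 1.80-fold (log2 change -0.84, SE 0.07, adjusted p = 0.00101), and the groups did not overlap. Relative to the summed macrophage markers Ccl6 went from 148% to 149% in int 2 to 54.9% to 59.0% in int 3. Ccl9, its neighbour in the genome and a close relative, stood at 6.43, 5.74 and 6.40 FPKM in int 2 and at 14.6, 27.7 and 4.79 FPKM in int 3, so the groups overlapped (log2 change 0.93, SE 0.54, adjusted p = 0.281). Without int 3-3 its log2 change was 1.56 (adjusted p = 0.00547). Ccl5, a ligand made by T cells and NK cells, overlapped too, at 9.43, 10.7 and 9.02 FPKM in int 2 and 8.59, 5.14 and 14.4 FPKM in int 3 (log2 change -0.14, adjusted p = 0.783). Its difference turned to 0.19 without int 3-2. Ccl3 and Ccl4, ligands from activated macrophages and T cells, were below the filter. Ccl3 had 1, 6 and 3 fragments in int 2 and 12, 35 and 27 in int 3, and Ccl4 had 1 in each int 2 library and 28, 21 and 6 in int 3 (adjusted p = 0.0742 and 0.107 without a filter).

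Genes that rose and genes that did not stood next to each other in the genome. In RefSeq's order of protein-coding genes Ccl2, Ccl7, Ccl11, Ccl12, Ccl8 and Ccl1 follow each other on chromosome 11 without another gene. Of these Ccl2, Ccl7, Ccl12 and Ccl8 rose, and Ccl11, the eosinophil chemokine eotaxin, lay between them at 10.5, 10.1 and 9.52 FPKM in int 2 and 10.4, 12.6 and 6.99 FPKM in int 3 (log2 change -0.04, SE 0.19, adjusted p = 0.897). The sign for Ccl11 turned to 0.02 with TPM and to 0.17 without int 3-3. Ccl1 had 1 fragment in all 6 libraries. The same chromosome holds Ccl5, Ccl9, Ccl6, Ccl3 and Ccl4 in a row, where only Ccl6 passed, and it fell. Cxcl3, Cxcl15, Cxcl1 and Cxcl2 also stand in a row.

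**Figure D2:**
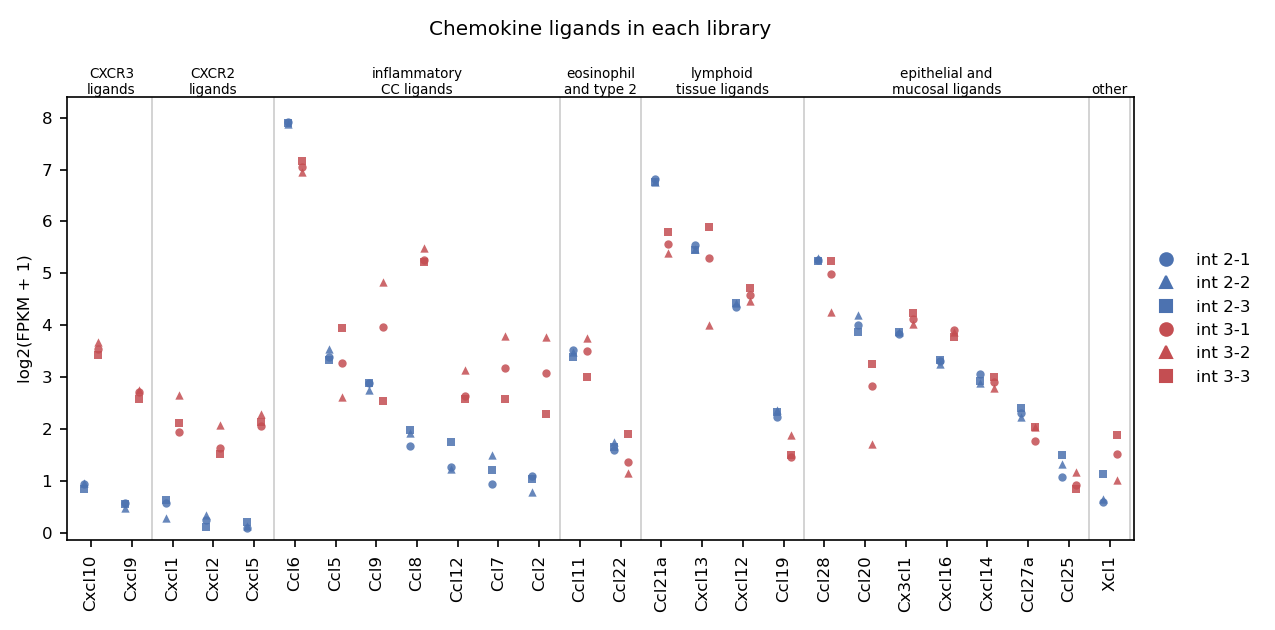
Level of the 26 tested ligands in each library as log2(FPKM + 1), int 2 in blue and int 3 in red, with symbols for the replicate numbers. The ligands of CXCR3 and CXCR2 and Ccl8 sit above all int 2 points in int 3, Ccl6 and Ccl21a below them, and Cxcl13, Ccl5 and Ccl9 spread on both sides.

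The other CC ligands for eosinophils and type 2 responses were few. Besides Ccl11, Ccl22, a dendritic cell ligand for Ccr4, was tested and stood at 2.03 to 2.37 FPKM in int 2 and 1.23 to 2.74 FPKM in int 3 (adjusted p = 0.514). It passed without int 3-3 (log2 change -0.41, adjusted p = 0.0192). Ccl17 and Ccl24 stayed under 1 FPKM, Ccl1 under 0.1 FPKM, and Ccl26 was listed at 0 in all libraries. Ccr3, the eosinophil receptor, had 0 to 2 fragments per library. Xcl1, a ligand from NK cells and CD8+ T cells for the dendritic cell receptor Xcr1, stood at 0.507, 0.560 and 1.19 FPKM in int 2 and 1.87, 1.02 and 2.70 FPKM in int 3 (log2 change 0.69, SE 0.25, adjusted p = 0.119, and 0.0212 without int 3-2). Xcr1 was below the filter, at 0.250 to 0.432 FPKM in int 2 and 0.0594 to 0.231 FPKM in int 3.

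Receptors that place lymphocytes in lymphoid tissue were lower in int 3. Cxcr5, which takes B cells into follicles, stood at 4.99, 5.05 and 4.97 FPKM in int 2 and at 1.20, 0.212 and 2.01 FPKM in int 3. It fell 4.39-fold (log2 change -1.58, SE 0.31, adjusted p = 0.0215). The int 2 values were nearly equal, and those of int 3 spanned a wide range below them, with 19 fragments in int 3-2. Cxcr4, the receptor of Cxcl12 on lymphocytes and many other cells, stood at 9.44, 9.42 and 9.65 FPKM in int 2 and at 2.89, 1.92 and 3.76 FPKM in int 3 (3.33-fold lower, log2 change -1.47, SE 0.17, adjusted p = 0.00393). It was the most abundant receptor in each int 2 library and had ranks 4, 7 and 3 in int 3. Ccr7, which guides naive T cells and mature dendritic cells into lymphoid organs, stood at 5.26, 3.85 and 3.69 FPKM in int 2 and at 1.48, 0.997 and 1.26 FPKM in int 3 (3.43-fold lower, log2 change -1.22, SE 0.14, adjusted p = 0.00371). Ccr6, on B cells and Th17 cells, stood at 2.43, 2.52 and 2.14 FPKM in int 2 and at 0.546, 0.229 and 1.17 FPKM in int 3 (3.64-fold lower, log2 change -1.07, SE 0.20, adjusted p = 0.0196). Of 5 tested lymphocyte receptors these 4 fell and Cxcr6 did not pass (log2 change -0.15, adjusted p = 0.556).

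Not all of these calls stand with fewer libraries or other settings. Without int 2-1, int 2-2, int 2-3 or int 3-1 Cxcr5 had adjusted p = 0.0918, 0.0936, 0.0911 and 0.0807, and Ccr6 had 0.0891, 0.0929, 0.0762 and 0.0882. Cxcr5 also missed the threshold with a pseudocount of 0.1 (adjusted p = 0.0589) and without a filter (0.0515). Cxcr4 and Ccr7 passed in every alternative.

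**Figure D3:**
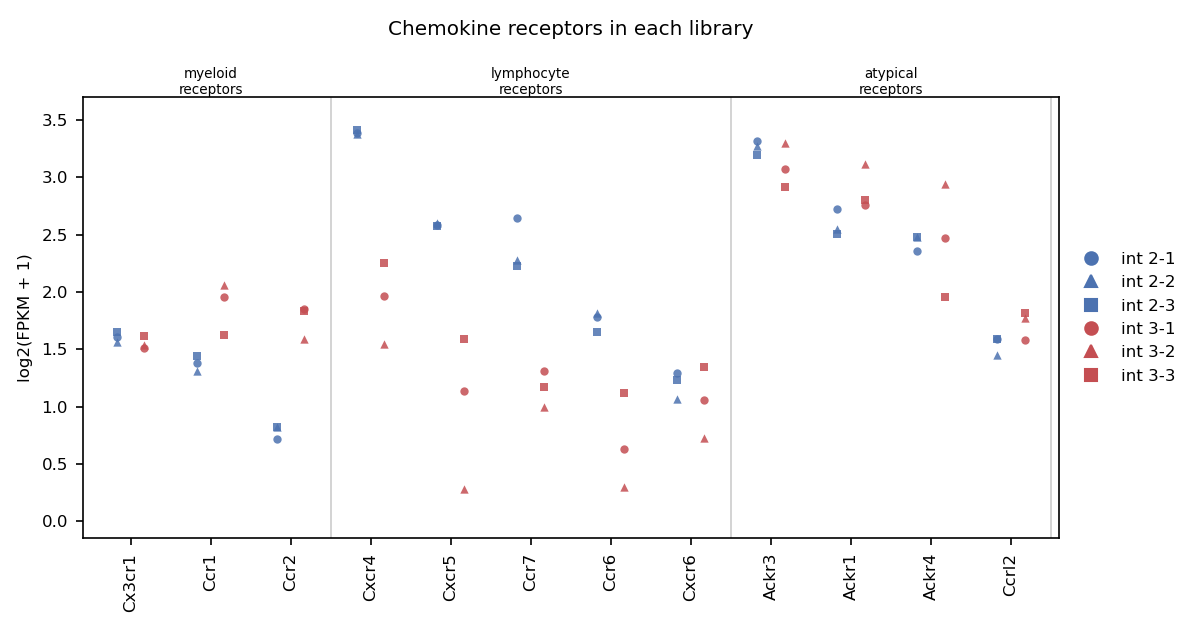
Level of the 12 tested receptors in each library as log2(FPKM + 1), int 2 in blue and int 3 in red. Cxcr4, Cxcr5, Ccr7 and Ccr6 lie lower in every int 3 library, Ccr2 and Ccr1 higher, and Cx3cr1 and Ackr3 overlap.

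B cell markers fell beside these receptors. All 10 tested members of the B cell list fell, and their summed level was 166 to 173 FPKM in int 2 and 28.3, 5.27 and 46.5 FPKM in int 3. The order of the int 3 libraries was the same for Cxcr5 and Ccr6. Relative to that sum Cxcr5 was not lower in int 3, at 2.91% to 2.99% in int 2 and 4.24%, 4.02% and 4.32% in int 3. Ccr6 went from 1.29% to 1.45% in int 2 to 1.93%, 4.34% and 2.51% in int 3. Of 8 tested T cell markers 5 fell and 3 did not pass. Of the 5, Cd5 and Il7r passed the filter only through int 2, as did Fcer2a in the B cell list. The T cell list had summed levels of 29.8 to 31.8 FPKM in int 2 and 8.85 to 18.1 FPKM in int 3. Relative to the T cell sum Ccr7 made 12.4% to 16.5% in int 2 and 6.93% to 11.3% in int 3, and relative to the B cell sum 2.22% to 3.12% in int 2 and 5.25%, 18.9% and 2.70% in int 3. Cxcr4 made 5.43% to 5.81% of the B cell sum in int 2 and 10.2%, 36.4% and 8.08% in int 3. Markers of Tregs were low and none of the 2 tested passed, with Foxp3, the defining transcription factor, at 0.179 to 0.288 FPKM in int 2 and 0.247 to 0.370 FPKM in int 3. The ratios were not tested.

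Ccl21a and Ccl19, the 2 ligands of Ccr7, fell as well. Ccl21a, from lymphatic vessels and lymphoid stroma, stood at 112, 107 and 107 FPKM in int 2 and at 46.0, 41.2 and 54.7 FPKM in int 3 (2.30-fold lower, log2 change -1.19, SE 0.10, adjusted p = 0.0014). It passed in every alternative. Its near-identical copies Ccl21b and Ccl21d had 1 fragment each over the 6 libraries, so fragments shared between copies may have been counted for Ccl21a or dropped. Ccl19 stood at 3.69, 4.13 and 4.01 FPKM in int 2 and at 1.74, 2.67 and 1.84 FPKM in int 3 (1.89-fold lower, log2 change -0.69, SE 0.12, adjusted p = 0.0159). Its call was lost without int 2-1 (adjusted p = 0.0650), int 2-2 (0.0832), int 2-3 (0.0796) or int 3-1 (0.0716). Lyve1, a marker of lymphatic vessels and some macrophages, fell from 10.7 ± 0.0879 to 5.85 ± 0.411 FPKM beside Ccl21a (adjusted p = 0.00118). Of 7 tested markers of lymphatic and high endothelium 4 fell (Lyve1, Mmrn1, Glycam1 and Chst4), with 1 of the 7 past the filter only through int 2. The 1 that rose was Pdpn (8.75 ± 0.794 to 12.3 ± 0.711 FPKM, adjusted p = 0.0144). Flt4 and Madcam1 did not pass, and Prox1 was below the filter (means of 0.279 FPKM in int 2 and 0.431 FPKM in int 3). Ccl21a made 131% to 138% of the sum of that list in int 2 and 66.7% to 94.3% in int 3, with no test on the ratio.

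Cxcl13 and Cxcl12 did not follow. Cxcl13, the follicle ligand of Cxcr5, stood at 45.8, 43.0 and 42.6 FPKM in int 2 and at 38.4, 14.98 and 58.5 FPKM in int 3, with int 3 values on both sides of int 2 (log2 change -0.42, SE 0.45, adjusted p = 0.549). Its difference turned to 0.11 without int 3-2. Cxcl12, the stromal ligand of Cxcr4, stood at 19.3, 20.55 and 20.51 FPKM in int 2 and at 23.0, 21.1 and 25.2 FPKM in int 3 (log2 change 0.19, SE 0.07, adjusted p = 0.138). It passed with TPM (adjusted p = 0.0422) and without int 3-2 (0.0311). Thus Cxcr4 was 3.33-fold lower in the same libraries in which its ligand was 1.15-fold higher in the means.

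Epithelial ligands were mixed. Cxcl16, a membrane-bound ligand of Cxcr6, rose from 8.95, 8.497 and 8.999 FPKM in int 2 to 14.1, 13.6 and 12.7 FPKM in int 3 (1.53-fold, log2 change 0.56, SE 0.06, adjusted p = 0.00291). Its receptor Cxcr6 stood at 1.45, 1.09 and 1.35 FPKM in int 2 and 1.08, 0.652 and 1.54 FPKM in int 3. Cx3cl1, the ligand of Cx3cr1, stood at 13.2, 13.5 and 13.6 FPKM in int 2 and at 16.3, 15.3 and 17.9 FPKM in int 3 (1.23-fold, log2 change 0.27, SE 0.07, adjusted p = 0.0396). That call was lost with median-of-ratios scaling (adjusted p = 0.17), without a filter (0.0604) and without int 2-1, int 2-2, int 2-3 or int 3-1 (0.157, 0.142, 0.139 and 0.133).

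Ccl20, the ligand of Ccr6 from the epithelium over lymphoid follicles, was lower in every int 3 library but missed the threshold. It stood at 15.1, 17.4 and 13.7 FPKM in int 2 and at 6.065, 2.272 and 8.5 FPKM in int 3 (2.74-fold, log2 change -1.43, SE 0.38, adjusted p = 0.0511). It passed with voom on the fragments (adjusted p = 0.0412) and without int 3-2 or int 3-3 (0.0059 and 0.00803). Ccl28, a ligand of Ccr10 made by colonic epithelium that attracts antibody-secreting cells, stood at 37.2, 38.1 and 36.6 FPKM in int 2 and at 30.6, 18.2 and 36.6 FPKM in int 3 (log2 change -0.43, SE 0.24, adjusted p = 0.254). Without int 3-3 its log2 change was -0.64 (adjusted p = 0.0436). Ccr10 was below the filter, at 0.560 to 0.858 FPKM in int 2 and 0.136 to 0.281 FPKM in int 3, and fell in the fit without a filter (adjusted p = 0.0249). Both Ccl20 and Ccl28 were lowest in int 3-2, the library with the fewest transcripts of Hoxb13 (16.4 FPKM, beside 146 and 267 in int 3-1 and int 3-3 and 285 to 288 in int 2). The part of the position along the intestine in these differences was not tested.

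Ccl25, the ligand of the gut-homing receptor Ccr9, stood at 1.102, 1.503 and 1.83 FPKM in int 2 and at 0.878, 1.23 and 0.799 FPKM in int 3 (log2 change -0.33, adjusted p = 0.169). Ccr9 had 84, 57 and 80 fragments in int 2 and 5, 7 and 19 in int 3, a 7.21-fold difference in mean FPKM, and fell in the fit without a filter (adjusted p = 0.0129). Ccl27a (adjusted p = 0.0557) and Cxcl14 (adjusted p = 0.653), both ligands of surface epithelia, did not pass, and Ccl27b and Cxcl17 were at or below 0.263 FPKM. Ccl27a passed with median-of-ratios scaling (adjusted p = 0.0483) and without int 3-2 or int 3-3 (0.0346 and 0.0257). Its gene overlaps Il11ra1 on the opposite strand, which was not lower beyond the spread (log2 change -0.21, adjusted p = 0.237). In GENCODE vM21 18 of the 60 members listed there overlap another gene, and whether fragments were counted by strand is not given in the sources used here. For Cxcl10 the overlapping gene Art3 stood at 8.67 FPKM in int 2 and 9.07 FPKM in int 3 (log2 change 0.02), and for Cxcr5 Bcl9l had a log2 change of 0.22.

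Of the 4 tested atypical receptors 0 passed in limma's test, 1 (Ackr1) had an unadjusted p under 0.05, and 0 passed with voom. Ackr1, which carries chemokines across the wall of venules, stood at 5.59, 4.87 and 4.68 FPKM in int 2 and at 5.77, 7.66 and 5.98 FPKM in int 3 (log2 change 0.30, SE 0.11, adjusted p = 0.133). Its 3 int 3 values were all above those of int 2 by a narrow margin. Of 8 tested markers of blood endothelium 2 rose (25%, beside 8.64% of all tested genes) and 6 did not pass. Without a filter 0 of the 8 rose. Their summed levels were 102 to 108 FPKM in int 2 and 176, 227 and 129 FPKM in int 3. Ackr3, a scavenger of Cxcl12, was the most abundant of them and stood at 8.97, 8.66 and 8.13 FPKM in int 2 and at 7.39, 8.86 and 6.53 FPKM in int 3 (adjusted p = 0.324, and 0.0460 without int 3-2). Ackr4, a scavenger of Ccl19, Ccl21 and Ccl25, had 4.13 to 4.59 FPKM in int 2 and 2.88 to 6.67 FPKM in int 3. Ccrl2 had 1.73 to 2.01 and 1.99 to 2.51 FPKM, and Ackr2, a scavenger of inflammatory CC ligands, 0.406 to 0.497 and 0.342 to 0.504 FPKM.

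Summed over all 38 ligands the level was 536 to 546 FPKM in int 2 and 420 to 477 FPKM in int 3. Ccl6 alone made 43.7% to 44.3% of it in int 2 and 29.3% to 30% in int 3, and Ccl21a 19.9% to 20.4% and 9.81% to 11.5%. Ccl8 went from 0.397% to 0.545% up to 7.62% to 10.4%. The 2 ligands of Cxcr3 went from 0.237% to 0.258% of the sum in int 2 up to 3.08% to 4.16% in int 3. Among receptors the lymphocyte group made 49.0% to 49.6% of the summed level in int 2 and 21.6%, 11.7% and 29.2% in int 3-1, int 3-2 and int 3-3. Atypical receptors made 40.6% to 41.4% and 50.2% to 67.3%.

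**Figure D4:**
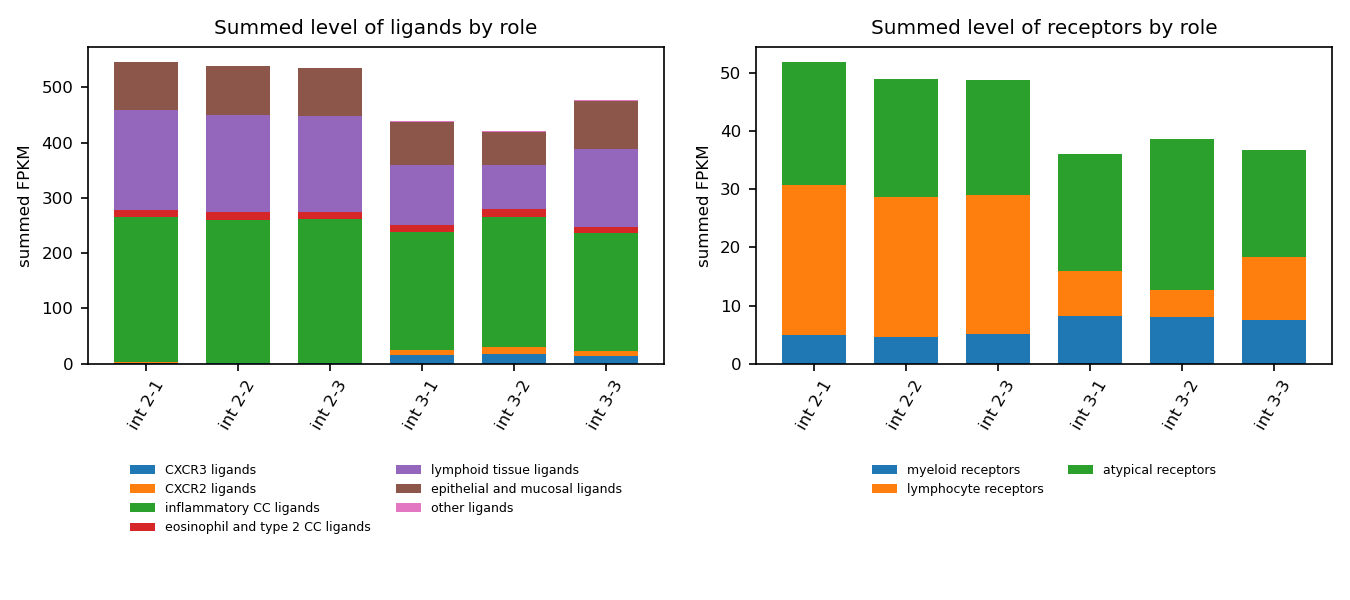
Summed FPKM of the ligands (left) and receptors (right) in each library, stacked by role; bars start at 0. The ligand bars reach 536 to 546 in int 2 and 420 to 477 in int 3, and lymphocyte receptors take 23.9 to 25.8 in int 2 and 4.50 to 10.7 in int 3.

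The int 3 libraries differed in 2 orders. In 7 of the 38 tested members int 3-2 and int 3-3 were over 2-fold apart on the log2(FPKM + 1) scale (Ccl2, Ccl5, Ccl7, Ccl9, Ccl20, Cxcl13 and Cxcr5), as were 571 of all 12525 tested genes. Ccl2, Ccl7 and Ccl9 were highest in int 3-2, and Ccl5, Ccl20, Cxcl13 and Cxcr5 were highest in int 3-3. In all 7 the value of int 3-1 lay between them, as in 567 of those 571 genes. Over all 38 it did so for 28 (73.7%), beside 73.5% of all tested genes. The cause of this middle place of int 3-1 was not tested, and the p-values treat the 3 int 3 libraries as independent. Int 3-2 was farther from the int 2 mean than int 3-3 for 28 members (73.7%), and for 65.5% of all tested genes. Ccl8, Cxcl9, Cxcl10 and Cxcl5 were close to equal in the 3 libraries, whereas Ccl2, Ccl7 and Cxcr5 were not.

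**Figure D5:**
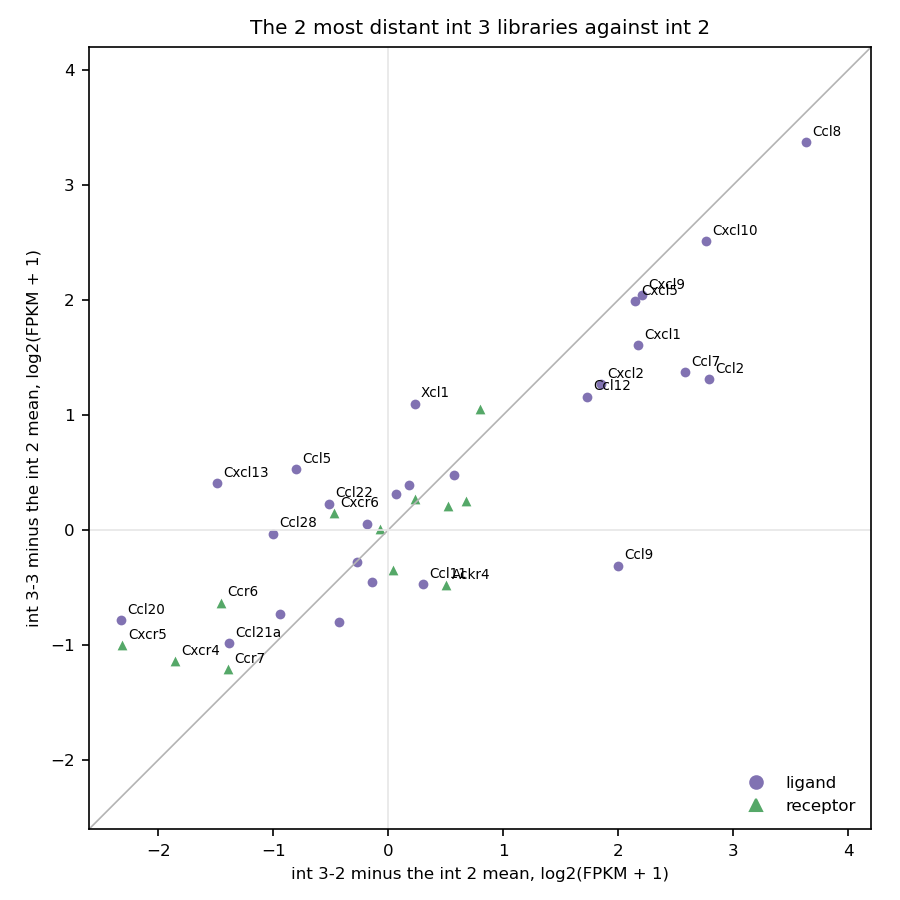
Difference of int 3-2 (x axis) and int 3-3 (y axis) from the int 2 mean on the log2(FPKM + 1) scale for the 38 tested members, ligands as circles and receptors as triangles, with the line of equality. Ccl8 and Cxcl10 lie near the line, Ccl9 lies far below it at 2.00 and -0.31, and Cxcl13 above it at -1.49 and 0.41.

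Genes that carry the chemokine signal inside cells were counted from a list of 45, chosen with earlier results of these data known. Of the 45, 41 were tested. Of these 5 rose and 15 fell, 12.2% and 36.6% of the tested list beside 8.64% and 6.7% of all tested genes, and 21 did not pass. Of the 15 that fell 4 (Rgs13, Pik3cg, Rhoh and Fgr) passed the filter only through int 2, where they were high. Those that fell were largely genes of leukocytes, such as Rac2, a small GTPase of blood cells (14.0 ± 0.623 to 6.12 ± 1.298 FPKM, adjusted p = 0.00454), Dock2, its activator in lymphocytes (2.89 ± 0.118 to 1.20 ± 0.296, adjusted p = 0.00646), and Coro1a, an actin regulator (48.4 ± 1.58 to 21.4 ± 8.09, adjusted p = 0.0276). Also lower were Rgs13, a regulator of G protein signalling (log2 change -1.40), and Pik3cg, the kinase subunit coupled to chemokine receptors (-0.62). Rgs13 stood at 0.445, 0.724 and 0.135 FPKM in int 3, highest in int 3-2, where the B cell markers summed lowest. Those that rose were Rgs2, Prex1, Gnai3, Rac1 and Cdc42, of which the last 3 are expressed in most cells. The inhibitory G protein subunit Gnai2 stood at 144 to 150 FPKM in int 2 and 157 to 189 FPKM in int 3 (adjusted p = 0.0990). Without int 2-1, int 2-2, int 2-3 or int 3-1 the list had 1 gene that rose and 6 to 9 fell, and without int 3-3 12 rose.

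Of 15 tested genes that display, cut or accompany chemokines 3 rose, 1 fell and 11 did not pass. Those are 20% and 6.67% of the tested list, beside 8.64% and 6.7% of all tested genes. The share that fell is thus close to that of all tested genes. Mif, a cytokine that also binds Cxcr4 and Cxcr2, rose from 142 ± 0.128 to 182 ± 2.50 FPKM (adjusted p = 0.00413), and Adam10, a protease that sheds Cx3cl1 and Cxcl16, from 22.1 ± 0.212 to 28.4 ± 0.819 FPKM (adjusted p = 0.00599). The third was Ndst1, an enzyme of heparan sulfate synthesis (adjusted p = 0.0199). Dpp4, a surface peptidase that trims and inactivates chemokines such as Cxcl10, fell from 9.91 ± 0.315 to 5.57 ± 0.776 FPKM (adjusted p = 0.0058).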

How the data were processed

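Per the labels' protocols, TRIzol was used to extract RNA from mouse large intestine and the VAHTS Universal V10 kit to make libraries. A single table was deposited by the authors, with FPKM values of 3 int 2 and 3 int 3 libraries, and the submitters' processing notes name GRCm39. Which aligner, which counter, which annotation and whether strand was used are not given in the sources used here. Low FPKM values moved in steps that gave whole fragments for 12516 of 12525 tested genes (99.93%, relative tolerance 1e-06), which gave the fragment counts and library totals.

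Genes that reached 1 FPKM in 3 libraries or more were fitted as log2(FPKM + 1) with limma 3.58.1 (trend, R 4.3.3, two-sided, Benjamini-Hochberg over all tested genes, threshold 0.05). The pseudocount makes fold changes of low genes smaller than their ratios of means. Alternatives were a pseudocount of 0.1, no filter, a filter on the mean, TPM, median-of-ratios scaling, voom on the fragments, a replicate block, library weights (fitted gene by gene) and each library left out.

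The members, the gene lists and the tests were chosen with earlier results of these data known. All 6 values are given for members past the threshold with an absolute log2 change of 0.58 or more, for the most abundant member of each role and for a fixed list of 20 genes. Ccl3, Ccl4, Ccl5, Ccl9, Cxcl3 and the named genes of the other lists were in part chosen after their values were seen. A library's replicate number names it and pairs nothing. Some results are not reported here.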

Additional observations from a re-analysis of the deposited data

How the results depend on the processing

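Over all tested genes 1082 rose and 839 fell. With library weights, which gave int 3-1 a weight of 4.92 and int 3-2 and int 3-3 0.182 and 0.192, the counts were 4271 and 2885, with 13 members lower and 12 signalling genes higher. With 1 library left out, 372 to 3124 genes rose and 241 to 1789 fell. Members higher ranged from 8 to 15 and lower from 4 to 11, and signalling genes from 1 to 12 higher and 6 to 17 lower. The low counts came without int 2-1, int 2-2, int 2-3 or int 3-1 and the high ones without int 3-3 or, for members higher, without int 3-2; the cause was not tested.

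The replicate numbers did not pair the libraries: deviations of same-numbered libraries correlated at -0.015, 0.004 and -0.022. With the replicate block 516 genes rose and 373 fell, 1 signalling gene rose, and Ccr1 (adjusted p = 0.107), Ccr6 (0.0589) and Cx3cl1 (0.0975) no longer passed in limma's test.

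The sign turned for 6 members, none of which passed either way. Ackr4 (log2 change 0.02) was at -0.029 with median-of-ratios scaling, -0.001 with voom, and -0.226 to 0.266 with 1 library left out. Ccl11 (-0.04) was at 0.021 with TPM, 0.028 with weights and -0.213 to 0.169 with 1 left out. Between the sets without int 3-3 and without int 3-2, Ccl5 ran from -0.479 to 0.186, Cxcl13 from -0.836 to 0.112 and Cxcr6 from -0.303 to 0.006. Cxcl14 was at 0.001 with TPM. Few fragments limit what can be seen of members below the filter.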
